A study of Homo sapiens with 9 samples.

Results

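The interleukin-1 system was described here in THP-1 cells through 9 genes: the cytokine genes IL1A, IL1B and IL18, the receptor antagonist gene IL1RN, the receptor genes IL1R1, IL1R2 and IL1RAP, and the inflammasome genes NLRP3 and CASP1. They were chosen by name, as the first entry of each symbol in the count table, and are 9 of 30000 rows. All 9 were found and all 9 were among the 18437 rows left by a filter on low counts.

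THP-1 is a monocytic leukaemia cell line, and its RNA was sequenced in 9 libraries of 3 groups, 3 in each. Libraries labelled PKM2_KD_Ecto were read as THP-1 cells given ectosomes of PKM2-knockdown Huh7 hepatoma cells, those labelled Scramble_Ecto as THP-1 cells given ectosomes of Huh7 cells with a scramble shRNA, and those labelled Ctrl as THP-1 cells with no ectosomes. Ectosomes are vesicles shed from the plasma membrane, and PKM2 is an isoform of the glycolytic enzyme pyruvate kinase. This reading rests on the library names and the study's title, which names Huh7 as the source of the ectosomes. The labels list the shRNA as a property of the THP-1 sample and do not say in which cells it acted, so a knockdown in the THP-1 cells themselves cannot be told apart from one in the Huh7 cells. PKM, the gene of PKM2, had 2181 to 2454 CPM (counts scaled to library size, with TMM factors) in PKM2-knockdown libraries, 3376 to 3573 CPM in scramble libraries and 428 to 789 CPM in control libraries, summed over its isoforms. Neither the ectosome dose nor the incubation time is given in the sources used here.

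Interleukin-1 alpha and beta bind the receptor IL1R1, which pairs with the accessory protein encoded by IL1RAP and signals through MYD88 and the IRAK kinases. IL1RN encodes an antagonist that occupies IL1R1 without signalling, and IL1R2 encodes a decoy receptor that binds the cytokine but has no signalling domain. Interleukin-1 beta and interleukin-18 are made as inactive precursors that caspase-1, the product of CASP1, cleaves, and caspase-1 is itself activated by inflammasomes, of which NLRP3 is the best known sensor in monocytes. Transcript levels of these genes do not report on cleavage or release of the cytokines.

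The libraries held 17744587 to 23864381 counts. Of 10 monocyte and macrophage markers 9 averaged at least 1 CPM in every group, CD68 being below that at 0.630, 0.466 and 0.314 CPM in PKM2-knockdown, scramble and control libraries. Their summed level ran from 1827 to 1925 CPM in PKM2-knockdown libraries, from 1242 to 1291 CPM in scramble libraries and from 936 to 1045 CPM in control libraries. Within that sum LYZ averaged 39.9, 17.6 and 203 CPM and FCGR1A 41.2, 14.6 and 71.1 CPM in PKM2-knockdown, scramble and control libraries, both highest in control. AFP, APOB, APOH and FGB, 4 of 10 hepatocyte and hepatoma markers, were at 0 or had no row, and ALB stayed at or below 0.524 CPM. The summed hepatocyte level was 36.1 to 42.9 CPM in PKM2-knockdown, 4.20 to 5.13 CPM in scramble and 2.54 to 5.68 CPM in control libraries, most of the first being SERPINA1 at a mean of 37.4 CPM. The summed neutrophil markers ran from 111 to 123, from 38.0 to 40.4 and from 184 to 185 CPM in PKM2-knockdown, scramble and control libraries, the fibroblast markers from 16.7 to 20.9, from 2.88 to 5.32 and from 2.29 to 6.18 CPM, and the endothelial markers from 800.3 to 816, from 649.8 to 705 and from 195 to 375 CPM, nearly all of it PECAM1. T cell markers summed to 8.98 to 9.75, 17.0 to 18.4 and 1.88 to 5.54 CPM with CD3D, CD3G and CD8A at 0 or without a row, and B cell markers to 22.9 to 24.5, 14.4 to 15.7 and 15.6 to 23.5 CPM with MS4A1 at 0 or without a row. The part of these marker differences in the results below was not tested. In bulk RNA, fewer cells that express a gene and less RNA of it per cell cannot be told apart. Control replicate 3 stood apart from control replicates 1 and 2. Set against their mean, 1020 of the tested rows were at least 2-fold lower and 230 at least 2-fold higher in control replicate 3. IL1B was lower in it by a log2 difference of -3.34, IL1RN by -1.57, IL1RAP by -1.06 and IL1R1 by -1.03, while IL18, NLRP3 and CASP1 lay at 0.17, -0.01 and -0.02.

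Of the 9 genes, 5 lie on chromosome 2 in the GENCODE 29 annotation of GRCh38, the build named in the submitters' processing notes. IL1R2 (positions 101991844 to 102028544) and IL1R1 (102064544 to 102179874) are neighbours on the plus strand. IL1A (112773915 to 112784590) and IL1B (112829751 to 112836903) follow each other on the minus strand, and IL1RN (113107214 to 113134016) lies beyond them on the plus strand. IL1RAP spans positions 190514051 to 190659750 of chromosome 3, plus strand, and NLRP3 positions 247416156 to 247449108 of chromosome 1, plus strand. IL18 (112143251 to 112164117) and CASP1 (105025443 to 105035250) are on the minus strand of chromosome 11. All 9 are protein-coding genes, and the exons of each, joined over its transcripts, cover 2124 bases (IL1A) to 11558 bases (IL1RAP).

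The windows of 250 bases before the RefSeq transcription starts (build GRCh38.p14) were searched on both strands for an NF-kB motif, for AP-1 (TGANTCA), PU.1 (GAGGAA), C/EBP (TTGCNNAA), STAT (TTCNNNGAA) and the TATA box (TATAAA). RefSeq windows were matched for 7 of the 9 genes, all but IL18 and CASP1, with 14 windows in all. The sequences of IL1A and IL1B are shown because these cytokine genes had the largest increases of the 9, and that of NLRP3 because it is the inflammasome sensor gene. Capitals mark motif matches, read 5′ to 3′ on the gene's strand.
IL1A, chr2:112784494-112784743, minus strand: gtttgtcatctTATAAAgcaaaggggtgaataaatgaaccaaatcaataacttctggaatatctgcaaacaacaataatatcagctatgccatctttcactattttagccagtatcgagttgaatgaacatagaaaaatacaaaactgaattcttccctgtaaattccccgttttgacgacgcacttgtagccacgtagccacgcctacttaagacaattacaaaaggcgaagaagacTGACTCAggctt
IL1B, chr2:112836780-112837029, minus strand: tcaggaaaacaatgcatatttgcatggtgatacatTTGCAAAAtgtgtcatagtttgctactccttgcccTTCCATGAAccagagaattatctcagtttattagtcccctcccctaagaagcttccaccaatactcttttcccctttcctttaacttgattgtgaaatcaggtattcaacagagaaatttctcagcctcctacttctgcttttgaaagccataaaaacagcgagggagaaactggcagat
NLRP3, chr1:247415923-247416172, plus strand: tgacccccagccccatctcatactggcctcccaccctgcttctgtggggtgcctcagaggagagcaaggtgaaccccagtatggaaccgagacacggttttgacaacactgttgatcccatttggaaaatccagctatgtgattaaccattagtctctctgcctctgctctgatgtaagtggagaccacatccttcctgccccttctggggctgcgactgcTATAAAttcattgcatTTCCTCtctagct
The IL1A window shown, 1 of 2 for the gene, holds an AP-1 match, TGACTCA, from -12 to -6 bases of the start, and a TATAAA from -239 to -234. The other (chr2:112784401-112784650) overlaps it. It holds AP-1 matches from -105 to -99 and from -55 to -49 of its own start and no TATAAA. The IL1B window holds a C/EBP match from -215 to -208 and a STAT match from -180 to -172. The NLRP3 window holds TATAAA from -29 to -24 and a PU.1 match on the other strand, read here as TTCCTC, from -13 to -8. Over 34786 distinct windows of the same length, AP-1 was found in 6.59%, PU.1 in 23.6%, C/EBP in 9.05%, STAT in 6.57%, the TATA box in 10.8% and the NF-kB motif in 5.21%. A match is a string of letters and was not tested for binding.

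Both kinds of ectosomes went with higher transcript levels of most of the 9 genes than in control cells, while the genes split into both directions when PKM2-knockdown ectosomes were set against scramble ectosomes. Against control, 8 of 9 rose with PKM2-knockdown ectosomes, none fell, and IL1RAP did not pass the threshold (edgeR quasi-likelihood test, two-sided, Benjamini-Hochberg adjusted p under 0.05 over all tested rows). In that comparison 53.7% of all tested rows were called, 27.0% as higher and 26.7% as lower. Against control, 7 of 9 rose with scramble ectosomes, none fell, and IL18 and IL1RAP did not pass, where 67.8% of all rows were called, 34.6% as higher and 33.2% as lower. IL1A and IL1R2, with 12 and 8 control reads, passed the filter on low counts only through the ectosome libraries where they were high. That either gene lay above control was thus fixed by the filter, and its calls against control lend no support. IL1B had 149 and 157 reads in control replicates 1 and 2 but 5 in control replicate 3, too few for the filter. It too passed only with the ectosome libraries, and its calls against control are read with that limit. PKM2-knockdown against scramble ectosomes gave 2 of 9 higher (IL18 and CASP1), 4 lower (IL1A, IL1RN, IL1R1 and NLRP3) and 3 that did not pass (IL1B, IL1R2 and IL1RAP), where 61.6% of all rows were called, 31.4% as higher and 30.3% as lower. Without PKM2-knockdown replicate 2 the first count was 5 higher, and 1 gene, CASP1, was higher against scramble ectosomes, as it was without scramble replicate 1 or scramble replicate 2. Calls over all rows also moved with 1 library left out, so the lost calls are not read as particular to these genes. The median log2 fold change of the 9 genes was 2.01 for PKM2-knockdown ectosomes over control, 1.82 for scramble ectosomes over control and -0.70 for PKM2-knockdown over scramble ectosomes, against -0.01, -0.01 and 0.03 over all tested rows. The medians and counts against control, also those of groups without overlap, include IL1A, IL1R2 and IL1B. They are therefore not free of the filter and are descriptions only. As both ectosome groups share the control libraries, PKM2-knockdown against scramble ectosomes is also what tests whether their effects differ. The balance of all calls depended on the scaling. With library totals alone, 40.2% and not 51.0% of the called rows were higher for scramble ectosomes against control, and 61.9% and not 50.9% for PKM2-knockdown against scramble ectosomes. The labels do not say whether replicates came from separate cultures, so the p-values measure only how these libraries vary, and that variation may be technical. The groups did not overlap for 8 of the 9 genes between PKM2-knockdown and control libraries, where this held for 60.5% of all tested rows, for 8 between PKM2-knockdown and scramble libraries (74.5% of all rows) and for 7 between scramble and control libraries (71.3%).

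**Figure D1:**
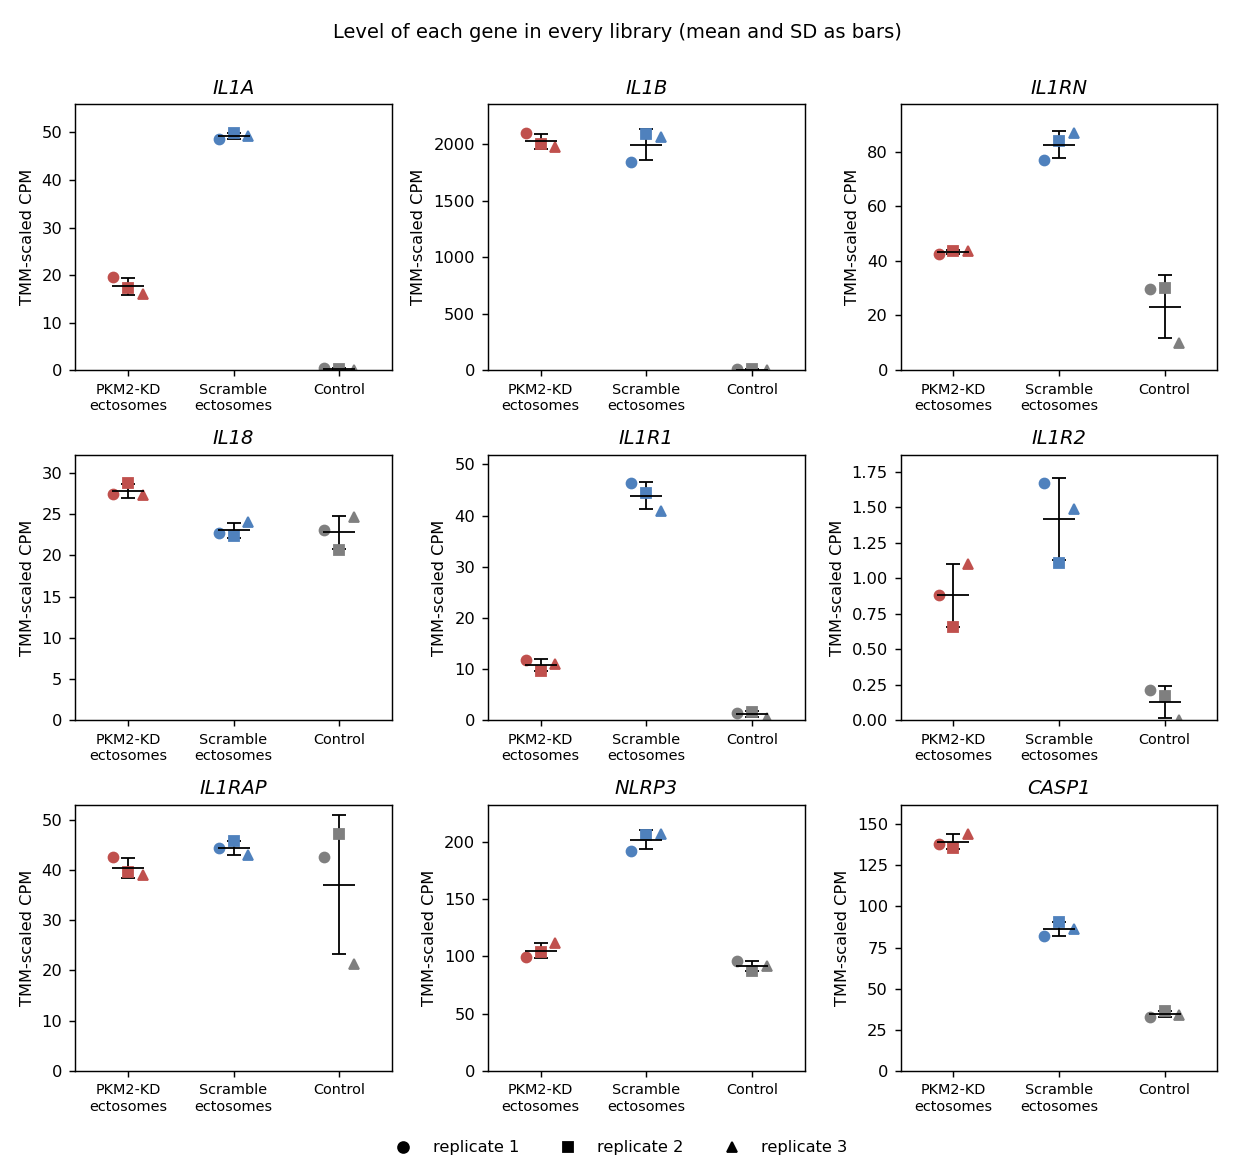
TMM-scaled CPM (linear axes from 0) of each of the 9 genes in all 9 libraries, one panel per gene, with points for libraries by replicate number and bars for the mean and SD of 3 libraries. IL1B stood at 1975 to 2101 CPM with PKM2-knockdown and 1843 to 2087 CPM with scramble ectosomes, above every control library, while CASP1 was highest with PKM2-knockdown ectosomes and NLRP3 highest with scramble ectosomes.

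IL1B, the gene of the secreted inflammatory cytokine interleukin-1 beta, had 2101, 1998 and 1975 CPM in PKM2-knockdown libraries, 1843, 2087 and 2061 CPM in scramble libraries and 7.94, 6.76 and 0.276 CPM in control libraries. All 6 ectosome libraries lay far above all 3 controls, and the ranges of the ectosome groups overlapped. By mean CPM the gene was number 21 of all rows in PKM2-knockdown libraries, number 31 in scramble libraries and number 11166 in control libraries, and its share of all counts was 0.209%, 0.183% and 0.000534%. IL1B rose 400-fold with PKM2-knockdown ectosomes over control (a log2 fold change of 8.64 with SE 0.66 and adjusted p = 2.07e-06) and 394-fold with scramble ectosomes (8.62, SE 0.66, adjusted p = 8.30e-07). Leaving out control replicate 3, whose 5 reads were too few for the filter, gave log2 fold changes of 8.11 and 8.09. Between PKM2-knockdown and scramble ectosomes the log2 fold change was 0.02 with a 95% interval of -0.99 to 1.03 (adjusted p = 0.973). That interval takes in the spread of the controls, since 1 estimate of spread was shared by all 9 libraries. With the 6 ectosome libraries alone the log2 fold change was 0.04, with an interval of -0.08 to 0.15 (adjusted p = 0.563).

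IL1A encodes interleukin-1 alpha, which is active as a precursor and acts as an alarm signal of damaged cells. It had 19.6, 17.3 and 16.1 CPM in PKM2-knockdown libraries, 48.7, 49.9 and 49.2 CPM in scramble libraries and 0.373, 0.215 and 0 CPM in control libraries, the controls resting on 12 reads in all. The 3 groups did not overlap, and the scramble libraries were the highest. That IL1A lay above control was fixed by the filter, as said above. IL1A rose 86.0-fold with PKM2-knockdown ectosomes over control (a log2 fold change of 6.43 with SE 0.31 and adjusted p = 1.10e-07) and 240-fold with scramble ectosomes (7.91, SE 0.30, adjusted p = 7.24e-09). Without control replicate 1 the log2 fold changes were 7.12 and 8.60. It was 2.79-fold lower with PKM2-knockdown than with scramble ectosomes (a log2 fold change of -1.48 with SE 0.18 and adjusted p = 3.52e-05). IL1A thus differed between the ectosome groups where its neighbour IL1B did not pass the threshold; whether the 2 genes' fold changes differ from each other was not tested.

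IL18 encodes interleukin-18, which drives interferon-gamma production in lymphocytes and, unlike IL1B, is present in resting monocytes. It had 27.4, 28.7 and 27.3 CPM in PKM2-knockdown libraries, 22.7, 22.4 and 24.0 CPM in scramble libraries and 23.1, 20.6 and 24.6 CPM in control libraries. All PKM2-knockdown libraries lay above all the others by a small margin, and scramble and control libraries overlapped. IL18 rose 1.22-fold with PKM2-knockdown ectosomes over control (a log2 fold change of 0.29 with SE 0.09 and adjusted p = 0.0212) and was 1.21-fold higher than with scramble ectosomes (0.27, SE 0.09, adjusted p = 0.0239). For scramble ectosomes over control it was 0.02 with a 95% interval of -0.19 to 0.22 (adjusted p = 0.882), and -0.19 when scaled by library totals alone. Both IL18 calls were near the threshold, and each was lost in 4 of 15 alternative settings. The call against control was lost without PKM2-knockdown replicate 2 (adjusted p = 0.0641), without control replicate 2 (0.0763), with no filter (0.0513) and with 2 groups only (0.0512). The call against scramble ectosomes was lost without PKM2-knockdown replicate 2 (adjusted p = 0.0792), without scramble replicate 1 (0.0783) or 2 (0.0829), and with DESeq2 (0.0567).

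IL1RN, the receptor antagonist gene, had 42.4, 43.7 and 43.7 CPM in PKM2-knockdown libraries, 77.0, 83.9 and 86.8 CPM in scramble libraries and 29.8, 30.2 and 9.77 CPM in control libraries. The groups did not overlap, and control replicate 3 was the lowest of the 9 libraries. IL1RN rose 1.85-fold with PKM2-knockdown ectosomes over control (a log2 fold change of 0.89 with SE 0.30 and adjusted p = 0.0290) and 3.54-fold with scramble ectosomes (1.82, SE 0.31, adjusted p = 0.000318), and was 1.91-fold lower with PKM2-knockdown than with scramble ectosomes (-0.93, SE 0.30, adjusted p = 0.0178). Without control replicate 3 the log2 fold changes over control were 0.52 with PKM2-knockdown and 1.46 with scramble ectosomes. The calls on PKM2-knockdown libraries were lost when any 1 of them was left out (adjusted p = 0.0644 to 0.0692 against control and 0.0516 to 0.0566 against scramble ectosomes). Without scramble replicate 3 the second was lost as well (adjusted p = 0.0516), as with library totals alone (adjusted p = 0.0528). The call against control was lost with 2 groups only (adjusted p = 0.0725). The call against scramble ectosomes was kept with the ectosome libraries alone, a fit in which the spread of the controls has no part. There the log2 fold change was -0.92 with an interval of -1.04 to -0.79 (adjusted p = 8.2e-11).

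Within a library, the antagonist and the cytokine can be compared with no scaling between libraries. As log2 of IL1RN over IL1B, each per kilobase of exon, the ratio averaged -5.62 ± 0.07 in PKM2-knockdown libraries, -4.67 ± 0.04 in scramble libraries and 2.95 ± 1.73 in control libraries (SD, n = 3 each). By this measure there was more IL1RN than IL1B transcript in every control library and 47.5 to 52.1 times more IL1B than IL1RN transcript in the PKM2-knockdown libraries, against 25.0 to 26.2 times in the scramble libraries. The ratio was lower by a log2 difference of -8.57 with PKM2-knockdown ectosomes and of -7.62 with scramble ectosomes than in control, and by -0.95 with PKM2-knockdown than with scramble ectosomes. Control replicate 3 held 30.7 times as much IL1RN as IL1B transcript, against 3.56 and 4.24 times in control replicates 1 and 2, and without it the differences from control were -7.58 with PKM2-knockdown and -6.63 with scramble ectosomes. The groups did not overlap in any of these comparisons. The exact two-sided permutation p was 0.10 for each, the smallest that 3 against 3 libraries allow, and 0.12 after adjustment over 6 ratio tests, so none passed.

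**Figure D2:**
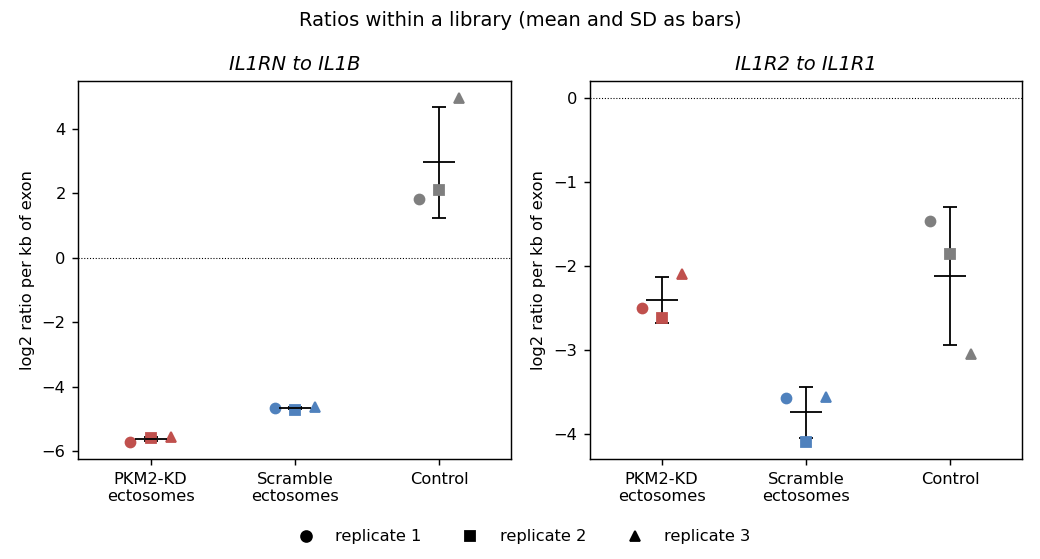
Log2 ratio of IL1RN to IL1B (left) and of IL1R2 to IL1R1 (right), per kilobase of exon with 0.5 counts added, in each of the 9 libraries, with bars for the mean and SD of 3 libraries and a dotted line at equal levels. The antagonist ratio averaged -5.62 with PKM2-knockdown ectosomes, -4.67 with scramble ectosomes and 2.95 in control, and the decoy receptor ratio was lowest with scramble ectosomes at -3.74.

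IL1R1, the signalling receptor, had 11.8, 9.56 and 11.1 CPM in PKM2-knockdown libraries, 46.3, 44.4 and 41.0 CPM in scramble libraries and 1.49, 1.59 and 0.497 CPM in control libraries. Again the groups did not overlap and the scramble libraries were the highest. IL1R1 rose 8.81-fold with PKM2-knockdown ectosomes over control (a log2 fold change of 3.14 with SE 0.26 and adjusted p = 3.44e-06) and 35.8-fold with scramble ectosomes (5.16, SE 0.25, adjusted p = 3.17e-08). The log2 fold changes were 2.79 and 4.82 without control replicate 3. It was 4.07-fold lower with PKM2-knockdown than with scramble ectosomes (-2.02, SE 0.20, adjusted p = 8.48e-06), the lowest fold change of the 9 genes in that comparison.

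IL1R2, the decoy receptor, was near the detection limit, with 0.883, 0.656 and 1.10 CPM in PKM2-knockdown libraries, 1.67, 1.11 and 1.49 CPM in scramble libraries and 0.213, 0.172 and 0 CPM in control libraries, or 53, 89 and 8 reads per group. Every ectosome library lay above every control, a direction fixed by the filter, as said above. It rose 6.36-fold with PKM2-knockdown ectosomes over control (a log2 fold change of 2.67 with SE 0.55 and adjusted p = 0.00191) and 10.3-fold with scramble ectosomes (3.37, SE 0.51, adjusted p = 0.000159). They were 2.16 and 2.86 on the log2 scale without control replicate 3. Between PKM2-knockdown and scramble ectosomes the log2 fold change was -0.70 with a 95% interval of -1.53 to 0.13 (adjusted p = 0.126), but it passed with the 6 ectosome libraries alone (adjusted p = 0.0410) and without control replicate 3 (adjusted p = 0.0422).

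The log2 ratio of the decoy to the signalling receptor, per kilobase, averaged -2.40 ± 0.27 in PKM2-knockdown libraries, -3.74 ± 0.30 in scramble libraries and -2.12 ± 0.82 in control libraries (SD, n = 3 each). By this measure signalling receptor transcript exceeded decoy transcript in every library. The ratio was higher by 1.34 with PKM2-knockdown than with scramble ectosomes and lower by a log2 difference of -1.62 with scramble ectosomes than in control, with no overlap in either comparison (exact two-sided permutation p = 0.10, adjusted 0.12 over the 6 ratio tests). PKM2-knockdown and control libraries overlapped, with a difference of -0.28 (exact permutation p = 0.60). Control replicate 3 had 0 reads of IL1R2 and 9 of IL1R1, so its ratio of -3.04 rests on the 0.5 counts added. The lack of overlap between scramble and control libraries depends on that added count. Without control replicate 3 the differences from control were -0.74 with PKM2-knockdown and -2.08 with scramble ectosomes, and without control replicate 1 the first was 0.048.

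IL1RAP, the shared accessory receptor chain, had 42.6, 39.5 and 39.0 CPM in PKM2-knockdown libraries, 44.3, 45.8 and 43.1 CPM in scramble libraries and 42.7, 47.3 and 21.4 CPM in control libraries. The values were alike but for control replicate 3, which lay apart below the rest. The log2 fold change was 0.12 for PKM2-knockdown ectosomes over control (95% interval -0.37 to 0.61, adjusted p = 0.676), 0.26 for scramble ectosomes over control (-0.23 to 0.74, adjusted p = 0.321) and -0.14 for PKM2-knockdown over scramble ectosomes (-0.62 to 0.35, adjusted p = 0.609). Without control replicate 3 the estimates against control changed sign, to -0.16 with PKM2-knockdown (adjusted p = 0.0691) and -0.02 with scramble ectosomes (adjusted p = 0.784), and with library totals alone that for PKM2-knockdown over scramble ectosomes was 0.04. IL1RAP shares 535 exon bases with the non-coding gene AC108747.1 on the same strand, which has no row of its own, so reads from the shared stretch cannot be told apart.

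NLRP3, the inflammasome sensor, had 98.9, 104 and 112 CPM in PKM2-knockdown libraries, 192, 206 and 207 CPM in scramble libraries and 95.7, 87.5 and 91.1 CPM in control libraries. The scramble libraries stood well above the rest, and PKM2-knockdown libraries lay just above control libraries. NLRP3 rose 2.20-fold with scramble ectosomes over control (a log2 fold change of 1.14 with SE 0.08 and adjusted p = 3.27e-07) and was 1.92-fold lower with PKM2-knockdown than with scramble ectosomes (-0.94, SE 0.08, adjusted p = 2.31e-06). For PKM2-knockdown ectosomes over control the change was 1.15-fold (0.20, SE 0.08, adjusted p = 0.0483), and it kept the threshold in only 3 of 15 alternative settings, with adjusted p between 0.0218 and 0.156 over all of them.

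CASP1, which encodes caspase-1, the protease that matures interleukin-1 beta and interleukin-18, was highest with PKM2-knockdown ectosomes. It had 138, 135 and 144 CPM in PKM2-knockdown libraries, 82.0, 90.3 and 86.3 CPM in scramble libraries and 32.7, 36.5 and 34.2 CPM in control libraries, with no overlap between groups. CASP1 rose 4.04-fold with PKM2-knockdown ectosomes over control (a log2 fold change of 2.01 with SE 0.08 and adjusted p = 1.88e-08) and 2.498-fold with scramble ectosomes (1.32, SE 0.08, adjusted p = 9.94e-08). It was 1.62-fold higher with PKM2-knockdown than with scramble ectosomes (0.69, SE 0.07, adjusted p = 1.61e-05). CASP1 has the neighbours CARD16 and CARD17, which resemble part of it and could share reads with that part, so its level is uncertain to that extent.

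**Figure D3:**
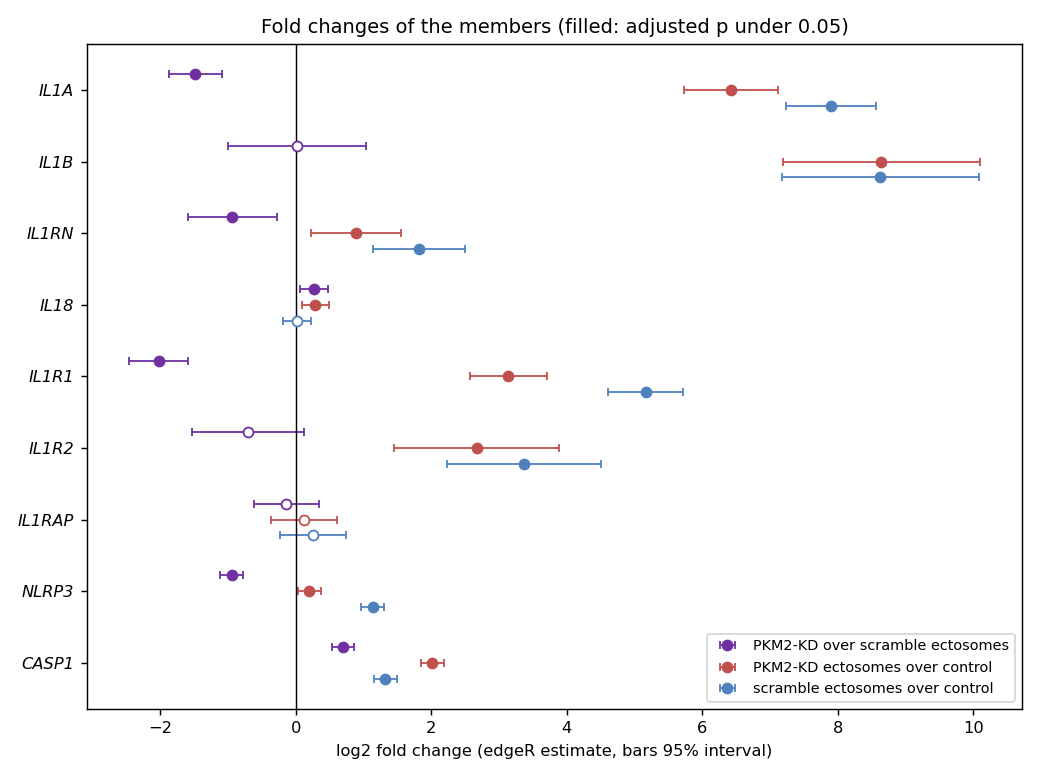
Log2 fold change (edgeR estimate) of the 9 genes in the 3 comparisons, with bars for the 95% interval and filled points for adjusted p under 0.05. The fold changes over control lie at or above 0 and reach 8.64 for IL1B, while PKM2-knockdown over scramble ectosomes runs from -2.02 for IL1R1 to 0.69 for CASP1.

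Per kilobase of exon, which allows levels of different genes to be set side by side roughly, IL1B led both ectosome groups and stood sixth in control. The length joins the exons of all annotated transcripts, 11558 bases for IL1RAP and 7083 for IL1R1, and not those of the transcript expressed. The order is therefore approximate. It averaged 654 ± 21.6 CPM per kilobase in PKM2-knockdown libraries, 645 ± 43.2 in scramble libraries and 1.61 ± 1.33 in control libraries (SD, n = 3 each). After it, PKM2-knockdown libraries followed the order CASP1 (37.7), NLRP3 (22.04), IL1RN (13.3), IL18 (10.6), IL1A (8.31), IL1RAP (3.49), IL1R1 (1.53) and IL1R2 (0.286 CPM per kilobase), and no neighbours overlapped over the 3 libraries. Scramble libraries had NLRP3 (42.4) second, then IL1RN (25.4), CASP1 (23.3) and IL1A (23.2), of which IL1RN overlapped CASP1 and CASP1 overlapped IL1A. Then came IL18 (8.76), IL1R1 (6.20), IL1RAP (3.84) and IL1R2 (0.462 CPM per kilobase). Control libraries were led by NLRP3 (19.2), followed by CASP1 (9.32), IL18 (8.67), IL1RN (7.14), IL1RAP (3.21), IL1B (1.61), IL1R1 (0.169), IL1A (0.0923) and IL1R2 (0.0418 CPM per kilobase), and all neighbours below NLRP3 overlapped.

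**Figure D4:**
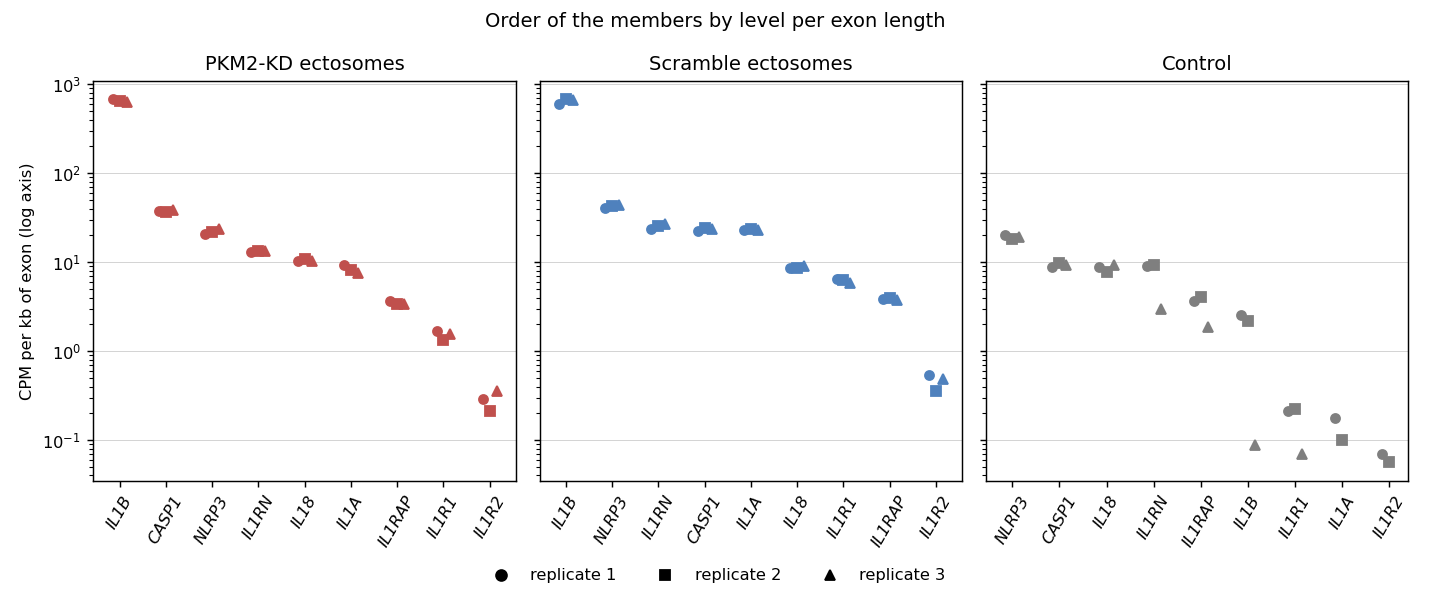
Level of the 9 genes in CPM per kilobase of exon (log axis), ordered by group mean from left to right within each group, with one point per library. IL1B leads both ectosome groups at about 654 and 645 CPM per kilobase and is sixth in control; control replicate 3 had 0 reads of IL1A and IL1R2 and is not drawn for them.

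Of 7 further ligand genes of the family, 5 had a row and 3 (IL36G, IL33 and IL36B) passed the filter on low counts, through the ectosome libraries where they were high, so that a difference from control was fixed by the filter and no count of calls is given. IL36G, an interleukin-36 agonist, had 1.42, 1.27 and 1.63 CPM in PKM2-knockdown libraries, 2.84, 2.58 and 3.69 CPM in scramble libraries and 0 reads in control. It was at least 28.7-fold higher with PKM2-knockdown and at least 61.1-fold higher with scramble ectosomes than in control, setting control at 3 reads over the group, and 2.11-fold lower with PKM2-knockdown than with scramble ectosomes (a log2 fold change of -1.08 with SE 0.24 and adjusted p = 0.00378). IL36B, another agonist of that subfamily, had 9 reads in PKM2-knockdown, 69 in scramble and 0 in control libraries, at least 2.97-fold and at least 22.3-fold above control. IL33, a nuclear alarm cytokine, had 13, 96 and 1 reads in the PKM2-knockdown, scramble and control libraries, a ratio to control of 12.9 (95% counting interval 1.93 to 546) with PKM2-knockdown and of 93.1 (16.3 to 3714) with scramble ectosomes. IL36RN and IL37 had too few reads to be tested.

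Of 8 further receptor and binding protein genes, 6 had a row and 4 were tested. Control replicate 3 held 6 reads of IL18R1 and 1 of IL18RAP, too few for the filter on low counts. Both genes thus passed it only with the ectosome libraries, where they were high, and their calls against control are read with that limit. IL18R1, the ligand-binding chain of the interleukin-18 receptor, had 21.3, 18.6 and 23.9 CPM in PKM2-knockdown libraries, 14.3, 14.3 and 12.7 CPM in scramble libraries and 1.60, 1.29 and 0.331 CPM in control libraries. IL18R1 rose 19.4-fold with PKM2-knockdown ectosomes over control (adjusted p = 1.31e-06) and 12.6-fold with scramble ectosomes (adjusted p = 1.65e-06). It was 1.54-fold higher with PKM2-knockdown than with scramble ectosomes (adjusted p = 0.0366). That call was lost when any 1 PKM2-knockdown or scramble library was left out, with adjusted p between 0.0550 and 0.132. It was kept in 8 of 15 alternative settings, with a lowest adjusted p of 1.11e-05. IL18RAP, its accessory chain, had 5.69, 5.30 and 7.29 CPM in PKM2-knockdown libraries, 2.80, 2.95 and 2.25 CPM in scramble libraries and 0.533, 0.603 and 0.0552 CPM in control libraries. It rose 14.6-fold with PKM2-knockdown ectosomes over control (adjusted p = 1.56e-05) and 6.39-fold with scramble ectosomes (adjusted p = 0.000174), and was 2.28-fold higher with PKM2-knockdown than with scramble ectosomes (adjusted p = 0.00557). SIGIRR, an inhibitory receptor of the family, was lower than control with both kinds of ectosomes. It had 19.5, 23.4 and 20.03 CPM in PKM2-knockdown libraries, 10.4, 12.2 and 12.1 CPM in scramble libraries and 36.0, 32.9 and 32.0 CPM in control libraries. SIGIRR fell 1.60-fold with PKM2-knockdown ectosomes (a log2 fold change of -0.68 with SE 0.11 and adjusted p = 0.000332) and 2.91-fold with scramble ectosomes (-1.54, SE 0.11, adjusted p = 5.22e-07), and was 1.81-fold higher with PKM2-knockdown than with scramble ectosomes (0.86, SE 0.11, adjusted p = 6.35e-05). IL18BP, the soluble inhibitor of interleukin-18, was called higher than control with both kinds of ectosomes, and IL1RL1 and IL1RL2 had too few reads to be tested.

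Of 23 further inflammasome and pyroptosis genes, 22 had a row and 21 were tested. AIM2, CASP5 and CARD17, with 8, 8 and 1 control reads, passed the filter only through ectosome libraries where they were high. Their rises over control in the counts below were thus fixed by the filter, as was that of CARD17 over scramble ectosomes. Against control, 11 rose and 2 fell with PKM2-knockdown ectosomes (median log2 fold change 0.80), where 27.0% of all tested rows were called higher and 26.7% lower. With scramble ectosomes 11 rose and 5 fell (0.70), where the shares of all rows were 34.6% and 33.2%. Set against scramble ectosomes, PKM2-knockdown ectosomes gave 9 higher and 4 lower (median 0.15), where the shares of all rows were 31.4% and 30.3%. Without control replicate 3 the counts were 12 higher and 4 lower, 12 and 6, and 11 and 7 in the same order. Calls over all rows moved as well with 1 library left out. They ran from 4399 to 5542 higher and 3958 to 5455 lower, then 5906 to 7022 and 5579 to 6618. For the last comparison they were 5113 to 6874 and 4988 to 6743. The share without control replicate 3 itself is not given here, so the added calls are not read as particular to these genes. PYCARD, the adaptor that links NLRP3 to caspase-1, was lower with both kinds of ectosomes than in control, with 45.5, 50.4 and 52.0 CPM in PKM2-knockdown libraries, 23.8, 26.0 and 27.1 CPM in scramble libraries and 95.1, 77.2 and 84.7 CPM in control libraries. PYCARD fell 1.74-fold with PKM2-knockdown ectosomes (a log2 fold change of -0.80 with SE 0.10 and adjusted p = 5.34e-05) and 3.34-fold with scramble ectosomes (-1.74, SE 0.10, adjusted p = 9.52e-08), and was 1.92-fold higher with PKM2-knockdown than with scramble ectosomes (0.94, SE 0.10, adjusted p = 1.40e-05). GSDMD, which encodes the pore-forming gasdermin cleaved by caspase-1, averaged 146 CPM with PKM2-knockdown ectosomes, 76.2 CPM with scramble ectosomes and 142 CPM in control. It fell with scramble ectosomes (adjusted p = 1.80e-06), was 1.92-fold higher with PKM2-knockdown than with scramble ectosomes (adjusted p = 2.21e-06), and its log2 fold change for PKM2-knockdown ectosomes over control was 0.05 (95% interval -0.12 to 0.21, adjusted p = 0.635).

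AIM2, a sensor of cytosolic DNA, averaged 5.10 CPM with PKM2-knockdown ectosomes, 2.33 CPM with scramble ectosomes and 0.132 CPM in control, a rise of 36.7-fold and 16.8-fold over control (adjusted p = 2.77e-06 and 1.23e-05). The controls held 8 reads of AIM2, and without control replicate 1 the log2 fold changes were 6.02 and 4.90, against 5.20 and 4.07 with it. That AIM2 lay above control was fixed by the filter. NINJ1, needed for membrane rupture at the end of pyroptosis, averaged 104, 217 and 23.0 CPM in the same order, a rise of 4.52-fold and 9.42-fold (adjusted p = 4.90e-07 and 1.39e-08), and was 2.08-fold lower with PKM2-knockdown than with scramble ectosomes (adjusted p = 3.70e-05). CASP4, a caspase that senses bacterial lipopolysaccharide, rose 1.74-fold with PKM2-knockdown and 1.95-fold with scramble ectosomes (adjusted p = 4.52e-06 and 4.49e-07). CARD16, a CASP1-like gene without the protease part, had 28.7, 27.3 and 27.2 CPM in PKM2-knockdown libraries, 7.63, 7.63 and 7.62 CPM in scramble libraries and 8.47, 9.47 and 6.62 CPM in control libraries. CARD16 rose 3.37-fold with PKM2-knockdown ectosomes over control (adjusted p = 1.61e-06) and stood 3.63-fold above scramble ectosomes (adjusted p = 8.00e-07), while scramble ectosomes over control gave a log2 fold change of -0.11 (adjusted p = 0.492). Its sequence is close to that of part of CASP1, and how reads were split between them is not stated.

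All 20 genes listed for signalling from the interleukin-1 receptor were tested. Against control, 6 rose and 3 fell with PKM2-knockdown ectosomes (median log2 fold change 0.10, with 27.0% of all tested rows higher and 26.7% lower), and 10 rose and 4 fell with scramble ectosomes (0.35, with 34.6% and 33.2%). PKM2-knockdown against scramble ectosomes gave 4 higher and 7 lower (-0.08, with 31.4% and 30.3% of all rows). Without control replicate 3 these became 10 and 3, 12 and 4, and 5 and 9. As calls over all rows also moved with 1 library left out, the added calls are not read as particular to these genes. IRAK1 and IRAK3 were called in opposite directions by the 2 kinds of ectosomes. IRAK1, a kinase that carries the signal, had 169, 195 and 199 CPM in PKM2-knockdown libraries, 356, 360 and 362 CPM in scramble libraries and 243, 212 and 241 CPM in control libraries. It fell 1.24-fold with PKM2-knockdown ectosomes (a log2 fold change of -0.31 with SE 0.09 and adjusted p = 0.0116, but 0.0535 without PKM2-knockdown replicate 1), rose 1.55-fold with scramble ectosomes (0.63, SE 0.09, adjusted p = 7.99e-05) and was 1.92-fold lower with PKM2-knockdown than with scramble ectosomes (-0.94, SE 0.09, adjusted p = 6.41e-06). IRAK3, a pseudokinase that restrains the signal in monocytes, had 390, 357 and 350 CPM in PKM2-knockdown libraries, 139, 141 and 131 CPM in scramble libraries and 220, 250 and 251 CPM in control libraries. It rose 1.52-fold with PKM2-knockdown ectosomes (0.60, SE 0.08, adjusted p = 0.000130), fell 1.75-fold with scramble ectosomes (-0.81, SE 0.08, adjusted p = 7.93e-06) and was 2.66-fold higher with PKM2-knockdown than with scramble ectosomes (1.41, SE 0.08, adjusted p = 3.03e-07).

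IRAK2, a kinase that sustains the response, averaged 118 CPM with PKM2-knockdown ectosomes, 182 CPM with scramble ectosomes and 8.60 CPM in control, a rise of 13.6-fold and 20.9-fold (adjusted p = 2.41e-05 and 4.04e-06). PKM2-knockdown over scramble ectosomes gave a log2 fold change of -0.62 (adjusted p = 0.140), which passed without control replicate 3 (adjusted p = 7.60e-08). MAP3K8, a kinase upstream of ERK, rose 3.44-fold with PKM2-knockdown and 3.19-fold with scramble ectosomes (adjusted p = 7.57e-07 and 4.22e-07). TAB2, an adaptor of the TAK1 kinase, rose 1.56-fold and 2.38-fold (adjusted p = 0.000162 and 5.70e-07), and PELI1, a ubiquitin ligase that acts on IRAK proteins, rose 2.08-fold and 2.46-fold (adjusted p = 7.97e-06 and 7.01e-07). TOLLIP, an inhibitory adaptor, rose 1.72-fold with scramble ectosomes (adjusted p = 6.98e-06) and was 1.501-fold lower with PKM2-knockdown than with scramble ectosomes (adjusted p = 8.37e-05).

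**Figure D5:**
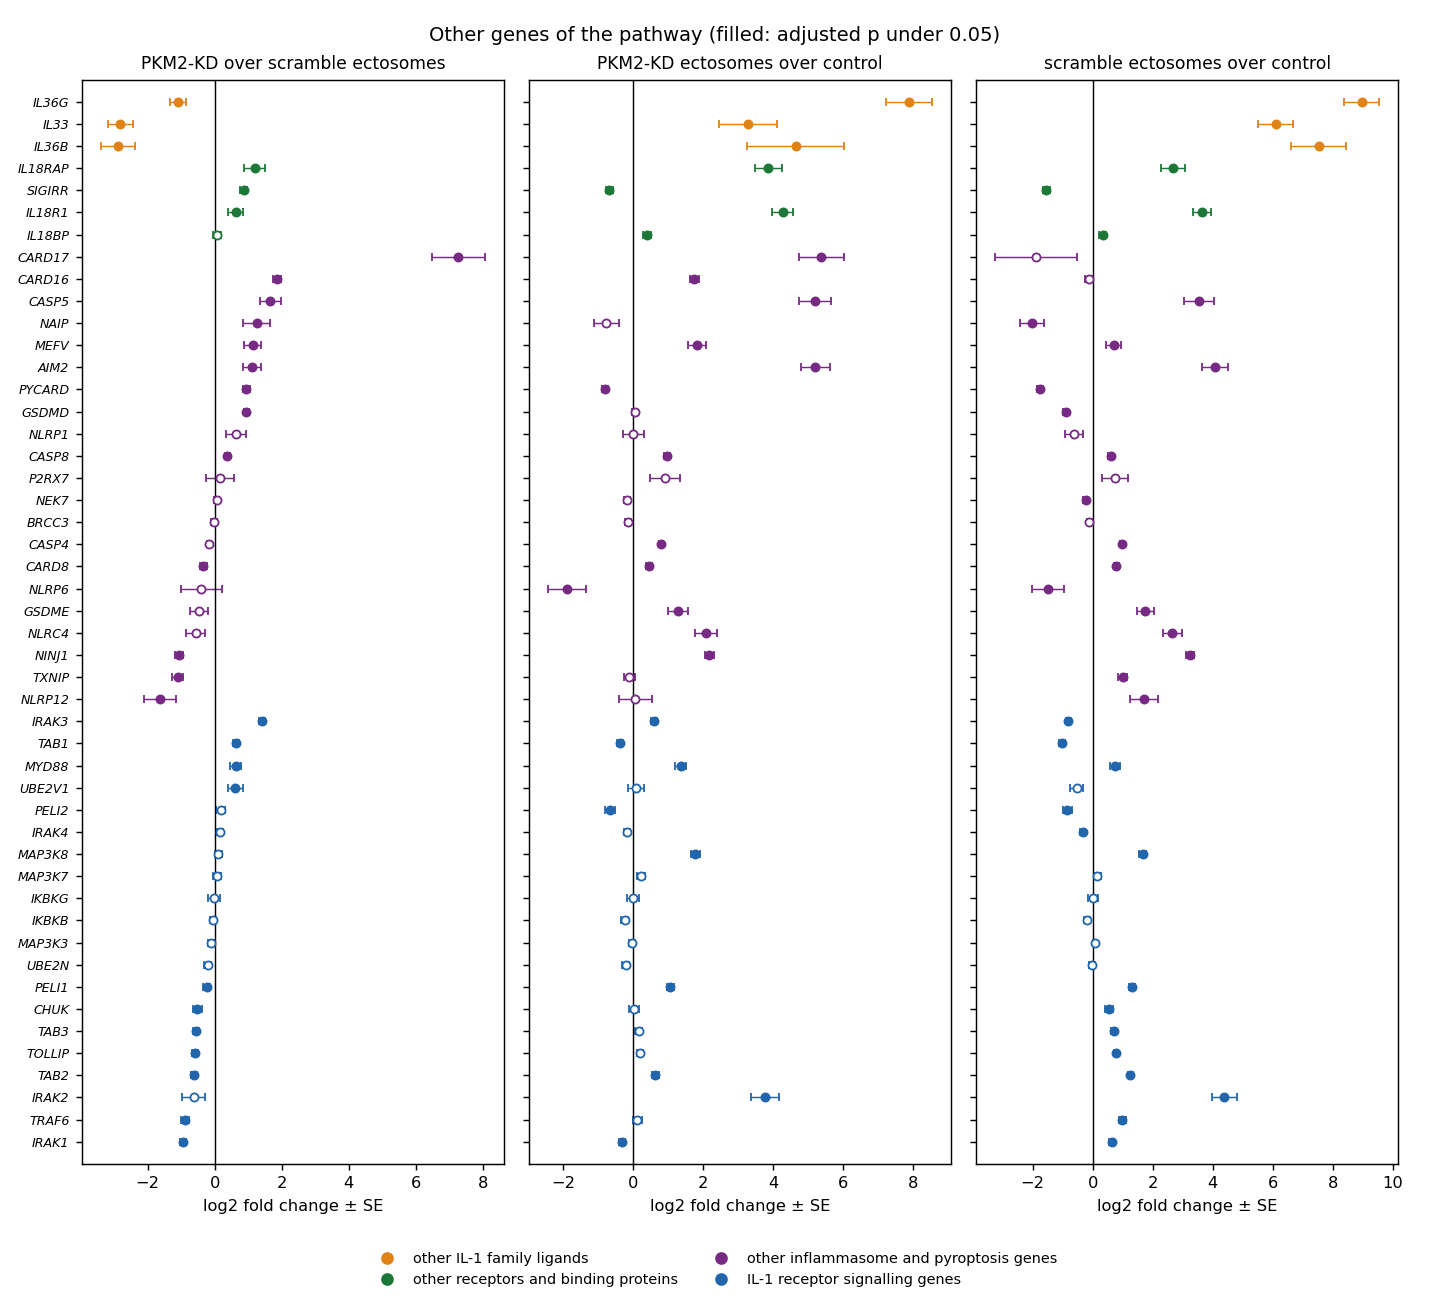
Log2 fold change ± SE (edgeR estimate) of the tested genes of the 4 further lists in the 3 comparisons, with colours for the lists and filled points for adjusted p under 0.05. Over control IL36G, IL33 and IL36B lie far to the right, and PYCARD and SIGIRR lie left of 0. In PKM2-knockdown over scramble ectosomes IRAK3 lies at 1.41 and IRAK1 at -0.94. Estimates for genes with 0 reads in a group depend on a small added count.

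The genes whose levels followed each of the 9 most closely over the 9 libraries were found by the root mean square difference of centred log2(CPM + 0.5) values. The profile nearest to IL1A was that of CXCL1, a neutrophil-attracting chemokine, at 0.243, with 44.0, 96.9 and 1.32 CPM in PKM2-knockdown, scramble and control libraries, followed by CRLF2 and CDCP1. The nearest to IL1B was MMP9, a matrix-degrading protease, at 1.004, followed by IER3 and EBI3. This difference was larger than that of the other 8 genes, but the measure grows with a gene's own spread. The SD over the 9 libraries was 4.66 log2 units for IL1B, 0.530 for NLRP3 and 0.155 for IL18. The values therefore do not rank how closely different genes were matched. The nearest to IL1RN were TRAC, KIF21B and SLC7A5, to IL18 SMURF2, M6PR and PDCD6, to IL1R1 ZNF697, NMRAL2P and CSRNP1, to IL1R2 DUSP22 and ACOT9, and to IL1RAP PODNL1, MYO1C and KAZALD1. The nearest to NLRP3 was KDELR1, a receptor that returns proteins to the endoplasmic reticulum, at 0.0459, with 103, 206 and 92.1 CPM in PKM2-knockdown, scramble and control libraries, then SSR2 and TPD52L2. Near CASP1 were TNIP1 and ITGA5. These are descriptions over 9 libraries of 3 groups, in which genes that differ between the groups alike come out alike. Among the 9 genes themselves the smallest differences were those of IL18 and IL1RAP (0.387), the 2 genes that moved least, then IL1RN and IL1R2 (0.396).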

How the data were processed

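RNA of 9 THP-1 libraries was extracted with Trizol and made into libraries with the NEBNext Ultra kit, per the labels' protocols. The values are raw counts, deposited by the authors as whole reads for each gene and not normalized. The submitters' processing notes name HISAT2 2.0.5, featureCounts 1.5.0-p3 and GRCh38/hg38. Which annotation, strand setting or filter was used is not given in the sources used here. Reads of overlapping genes on opposite strands and of near-identical genes therefore cannot be told apart. The lowest row total was 4 counts. Depths of 17744587 to 23864381 counts limit the precision of genes with few reads.

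The counts were tested with edgeR 4.0.16 in R 4.3.3: rows filtered by filterByExpr (18437 left), libraries scaled by TMM, and all 9 fitted together by quasi-likelihood, with group alone as a term (6 residual degrees of freedom). Tests were two-sided, and the threshold was a Benjamini-Hochberg adjusted p of 0.05 over all tested rows. CPM are TMM-scaled. Fold changes are model estimates, and SEs were derived from them and the F statistics. Where a group had 0 reads, a bound of 3 counts over the group was used. Intervals on reads cover counting error only. Exon lengths are from GENCODE 29, joined over all transcripts of a gene, so ratios between genes are approximate. Ratios within a library had 0.5 counts added. The script was tested on simulated data. Alternatives were other scaling, no filter, 2 groups only, a replicate block, each library left out and DESeq2 1.42.0.

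The 9 genes and the lists were chosen with earlier results of these data known. Named beside them were, per list and comparison, up to 3 genes with the smallest p among those called, and the 3 most alike profiles per gene (mean of at least 1 CPM), except that some of these profiles are not reported here. IL18BP, CASP5, CARD17 and genes with too few reads were named after their values were seen.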

Additional observations from a re-analysis of the deposited data

How the results depend on the processing

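Of the values recomputed for single genes under the alternatives, 1190 kept their direction and side of the threshold, 47 lost the call, 9 gained it and 12 changed sign. Those that changed sign had not passed the threshold. They were, in log2 fold change, IL18 for scramble ectosomes over control (-0.19 with library totals alone, -0.028 with no filter, -0.033 with 2 groups only, and -0.054 to 0.076 with 1 library left out), IL1RAP for PKM2-knockdown over scramble ectosomes (0.038 with library totals alone), CASP4 in the same comparison (0.0096 with library totals alone), IL1RAP against control (-0.16 to 0.33 with PKM2-knockdown and -0.023 to 0.47 with scramble ectosomes with 1 library left out), CARD16 for scramble ectosomes over control (-0.24 to 0.012) and IL1B for PKM2-knockdown over scramble ectosomes (-0.042 to 0.049). Library totals alone moved the median of all rows to -0.21 for scramble ectosomes over control and to 0.20 for PKM2-knockdown over scramble ectosomes.

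Of the 9 genes, 5 and not 8 were higher with PKM2-knockdown ectosomes than in control when only 2 groups were fitted, and 5 to 8 with 1 library left out. For PKM2-knockdown over scramble ectosomes 1 and not 2 was higher with DESeq2, and 1 to 2 with 1 library left out. The shares of all rows under each of these settings are not given here, so the lost calls are not read as particular to these genes. The log2 ratio of IL1R2 to IL1R1 between PKM2-knockdown and control libraries was 0.52 with 0.1 counts added and ran from -0.74 to 0.048 with 1 library left out. Leaving out control replicate 3, an alternative chosen after seeing the data for the further lists, gave 4 and 7 inflammasome genes lower with PKM2-knockdown ectosomes, against control and against scramble ectosomes, and 10 signalling genes higher against control. Calls over all rows also moved with 1 library left out, in the ranges given above. The cause of these shifts was not tested. Where 1 library is left out of a group, the other groups share their spread with it.

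The replicate numbers of the labels showed no sign of pairing in the deviations from the group means. Same-numbered libraries had correlations of -0.134 to 0.0948 and different-numbered ones of -0.0998 to 0.0789. With 3 libraries a group this cannot show that the libraries were unpaired. With the replicate block 7 of the 9 genes were higher with PKM2-knockdown ectosomes than in control, and 8 without it, the call of NLRP3 being lost. The share of all rows called with the block is not given here.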
